A study of Mus musculus with 21 samples.

Results

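CD62L-neg GMPs and CD62L-high CMPs are 2 sorted progenitor populations of mouse bone marrow, and the comparison asked which lineage programs set their RNA apart, since the study places both on routes from CMPs to GMPs. Each was represented by 3 RNA-seq libraries, so that 6 of the 21 libraries of the series entered the comparison, and all genes of the deposited count table were considered. The members were chosen by their sort label alone. Both populations came from the lineage-negative, SCA-1-negative, C-KIT-positive, CD34+ part of the marrow of untreated C57/B6 mice, with no transgene or deletion in either group. CMPs, the common myeloid progenitors, were CD16/32-, and GMPs, the granulocyte and monocyte progenitors, were CD16/32+. CD62L is an adhesion receptor of the cell surface. The CMPs were split by surface CD62L into low, middle and high ranges, of which the highest gave the CD62L-high CMPs, and the small fraction of GMPs with the lowest CD62L gave the CD62L-neg GMPs. The other 5 populations were bulk CMPs, CD62L-low CMPs, bulk GMPs, CD62L-low GMPs and CD62L-high GMPs, as the labels spell them, and the study's text calls the CD62L-low CMPs CD62L-neg and the CD62L-low GMPs CD62L-int. Neither sort is a pure cell type: the gates cut a continuous range of CD62L. Bulk GMPs contain the CD62L-neg cells, and bulk CMPs contain the CD62L-high cells. The sources do not say whether the 3 libraries of a group came from separate mice. The p-values therefore measure the spread between these libraries, which may be technical.

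Myeloid progenitors pass through choices between lineages that are each driven by a small number of transcription factors. GATA2 and GATA1 act in megakaryocyte, erythroid, eosinophil, basophil and mast cell precursors. PU.1, encoded by Spi1, and C/EBPα, encoded by Cebpa, act in granulocyte and monocyte precursors, where GFI1 and C/EBPε favour granulocytes and IRF8 and KLF4 favour monocytes and dendritic cells. Granule proteins are made in sequence during granulocyte maturation, with primary granules filled at the promyelocyte stage and secondary and tertiary granules later. The receptor FLT3 marks progenitors with lymphoid and dendritic cell potential.

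The CD62L-high CMP libraries held 11683991, 14456810 and 14650082 counts, and the CD62L-neg GMP libraries held 12764020, 12503320 and 12148893. Levels are given as CPM, counts per 1e6 after scaling by the TMM method, and a difference is a log2 fold change of CD62L-neg GMPs minus CD62L-high CMPs, so that a positive value means higher in CD62L-neg GMPs. Where 3 values are listed for a population they are replicates 1, 2 and 3. Between them, Gm42418, Gm26917 and Gm23935, which are 3 gene models, took 23.63% to 24.93% of the counts in CD62L-high CMPs and 25.31% to 26.94% in CD62L-neg GMPs. In bulk RNA of a sorted population, fewer cells of a type and less RNA per cell cannot be told apart. In the wider series, bulk CMP replicate 2 and CD62L-high GMP replicate 1 stood apart, with 61.03% and 41.09% of their counts in these gene models. The methods say that a bulk CMP sample was left out for low mapping, without naming it. Neither library touches the values from the 6 libraries.

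The genes of the CD16/32 gate followed the labels in every library and are no finding. Fcgr3, which encodes CD16, was at 157, 202 and 178 CPM in CD62L-neg GMPs against 16.6, 14.8 and 16.3 CPM in CD62L-high CMPs. Reads of Fcgr3 and of its paralog Fcgr2b (CD32) may be shared, and Fcgr2b was at 65.5, 71.2 and 68.01 CPM against 28.2, 24.8 and 19.7 CPM. Kit levels were close, at 299, 280.2 and 282 CPM against 208, 238 and 253 CPM. Cd34 was at 148, 167 and 158 CPM in CD62L-neg GMPs and at 417, 399 and 429 CPM in CD62L-high CMPs, although both gates were CD34+. The T cell gene Cd3e and the neutrophil gene Ly6g, markers of lineages that the sort removed, were too low to be tested. Other markers of that kind were detected: Itgam (CD11b) was called higher in CD62L-neg GMPs, at 10.6, 9.59 and 16.1 CPM against 5.02, 5.71 and 6.49 CPM (adjusted p = 0.0141), a call lost without CD62L-high CMP replicate 1 or CD62L-neg GMP replicate 3, and Il7r was detected in CD62L-high CMPs alone. Their part in the results was not tested.

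Of 12997 genes tested, 618 were higher in CD62L-neg GMPs and 740 were higher in CD62L-high CMPs at a fold change over 2 and an adjusted p under 0.05. The calls made up 10.4% of the genes tested, 4.75% in the direction of CD62L-neg GMPs and 5.69% in the direction of CD62L-high CMPs. These shares are the background for the counts of called members in the lists below. A member with few or no counts in a population passed the filter through the other population. Its direction was then fixed, so for lists with such members these shares are no fair measure. Some genes, such as Flt3, Id2 and Irf8, are on several lists and count in each, so the lists are not independent. The median log2 fold change of all genes tested was 0.007. More than 8-fold differences were found for 160 of the genes higher in CD62L-neg GMPs and for 231 of those higher in CD62L-high CMPs. Of the called genes, 616 and 736 had no overlap between the libraries of the groups, which held for 37.7% of all genes tested.

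**Figure D1:**
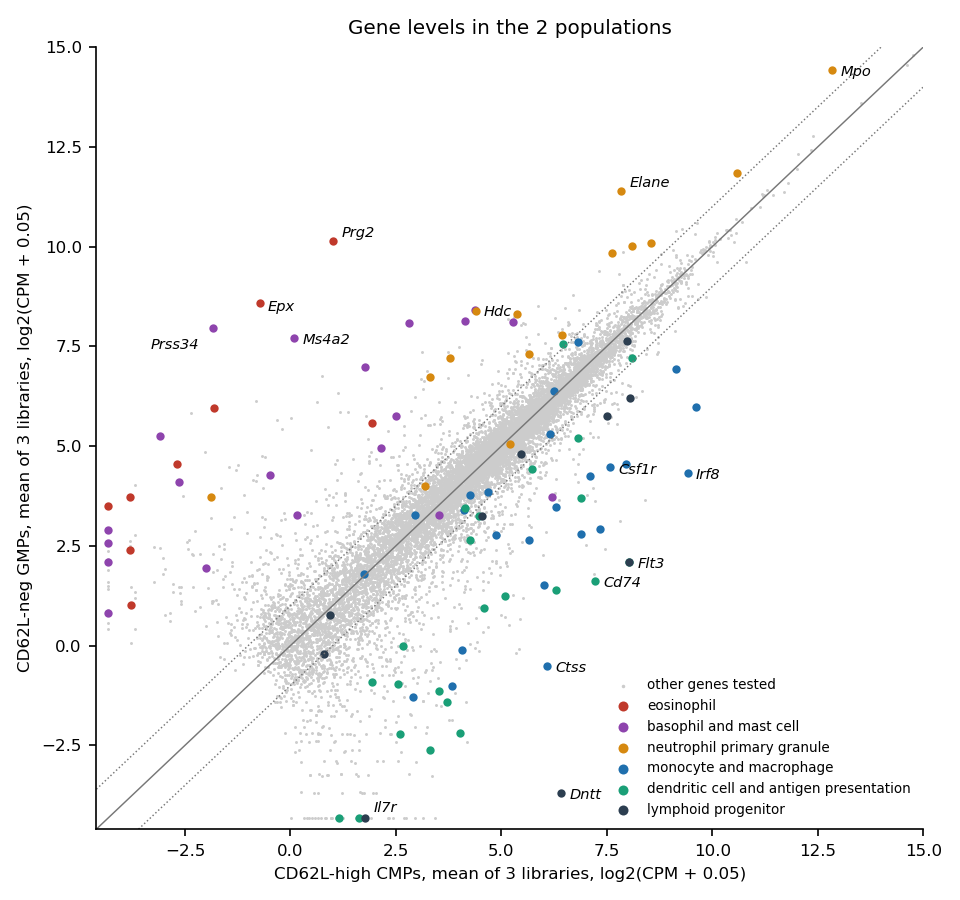
Mean level of each tested gene in CD62L-high CMPs (horizontal) and CD62L-neg GMPs (vertical), both as log2(CPM + 0.05) over 3 libraries, with members of 6 gene lists in colour. A gene in several lists takes the colour of the list named last. The solid line marks equal levels and the dotted lines a 2-fold difference. Most eosinophil, basophil and mast cell genes lie far above the line, and most monocyte, dendritic cell and lymphoid genes lie below it. Points on the left and lower edges had no counts in a population.

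The 10 named genes with the largest differences toward CD62L-neg GMPs were Ear1, Prss34, Epx, Prg2, Rnase12, Il1rl1, Ear2, Cdh1, Prg3 and Ear6. Most are granule genes of eosinophils or basophils. Those with the largest differences toward CD62L-high CMPs were Dntt, Arhgap12, Slamf7, Rnf150, Ctss, Mycl, Flt3, Sdc1, Ifi205 and Selp. Dntt encodes the terminal deoxynucleotidyl transferase of early lymphoid cells, and Ctss encodes cathepsin S, a protease of antigen-presenting cells.

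Eosinophil genes had the largest median difference of the lists described here. Of 10 genes on the eosinophil list 9 could be tested, and all 9 were called higher in CD62L-neg GMPs, against 4.75% of all genes tested, with a median log2 fold change of 8.12, or 7.78 with Ear1 at its lower bound. Their summed level was 1338 to 2063 CPM per library in CD62L-neg GMPs and 4.07 to 10.9 CPM in CD62L-high CMPs. Ccr3, the eotaxin receptor of mature eosinophils, was the member too low to test. Most of the 9 tested members had few or no counts in CD62L-high CMPs and passed the filter through CD62L-neg GMPs. Their number of calls is therefore no fair measure against the share of all genes, and the list was written with earlier results known.

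Prg2, at chr2:84980461-84983632 in mm10, encodes the major basic protein of the eosinophil granule. It was at 891, 1418 and 1063 CPM in CD62L-neg GMPs and at 4.35, 0.739 and 0.787 CPM in CD62L-high CMPs (log2 fold change 9.27 ± 0.37 (SE), adjusted p = 2.79e-11). The groups did not overlap, and replicate 1 was the highest CD62L-high CMP library. Its neighbour Prg3, at chr2:84988215-84993886, is a paralog with a similar product. Prg3 was at 43.6, 82.7 and 60.7 CPM against 0.502, 0.201 and 0 CPM (log2 fold change 8.12 ± 0.42 (SE), adjusted p = 4.29e-10). Epx encodes eosinophil peroxidase and lies at chr11:87864000-87875536. It was at 314, 448 and 390.3 CPM against 0.921, 0.604 and 0.131 CPM (log2 fold change 9.49 ± 0.26 (SE), adjusted p = 7.74e-13). All 3 genes were high in each CD62L-neg GMP library and below 1 CPM in the CD62L-high CMP libraries, except for Prg2 in replicate 1. Without that library the log2 fold changes were 10.51 for Prg2 and 9.16 for Prg3.

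Ear1, Ear2 and Ear6 are eosinophil-associated ribonucleases on chromosome 14, and reads may be divided among these near-identical copies. Ear6 was at 17.7, 18.8 and 33.1 CPM against 0.251, 0.0671 and 0 CPM (log2 fold change 7.78 ± 0.54 (SE), adjusted p = 1.55e-08), and the log2 fold change was 9.09 without CD62L-high CMP replicate 1 and 7.18 without replicate 3. Ear1 was at 8.14, 10.3 and 15.3 CPM with no count in CD62L-high CMPs, which makes it at least 157-fold higher with a floor of 3 counts over the group. For Ear2, 1 count in CD62L-high CMPs gave a ratio of 553-fold, with a 95% counting interval of 98.7 to 21870.0. Il5ra, the α chain of the interleukin 5 receptor and an early eosinophil lineage marker, was low in absolute terms, at 9.35, 4.26 and 2.04 CPM, with 1 count in the CD62L-high CMPs. Siglecf, a surface lectin of eosinophils, was detected in both populations, at 40.6, 61.7 and 40.96 CPM against 4.77, 4.16 and 2.43 CPM (log2 fold change 3.67 ± 0.25 (SE), adjusted p = 1.64e-08).

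Basophil and mast cell genes followed the same direction. Of 24 list members 20 could be tested. In CD62L-neg GMPs 18 of them were higher, against 4.75% of all genes tested. Itgb7 was higher in CD62L-high CMPs and Mitf was not called. The median log2 fold change was 5.02, or 4.69 with members without counts at their bound. Summed levels were 1609.9 to 2511 CPM in CD62L-neg GMPs and 155 to 209.7 CPM in CD62L-high CMPs. Of the mast cell proteases, Cma1 was at 2.42, 10.2 and 5.003 CPM and Tpsb2 at 1.45, 2.002 and 1.696 CPM in CD62L-neg GMPs, both with no count in CD62L-high CMPs, which makes them at least 81.8-fold and 24.04-fold higher. Tpsab1, Mcpt4, Il4 and Rgs13 were too low to test. As on the eosinophil list, members without counts in CD62L-high CMPs passed the filter through CD62L-neg GMPs.

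Promoter windows of 2 of these genes are shown because they hold a GATA motif, the letters AGATAA on either strand. They run from 250 bases before to 50 bases after the start site, 5′ to 3′ on the gene's strand, from RefSeq on GRCm38.p6, with the motif in capitals. The Prss34 window lies at chr17:25298144-25298443 on the plus strand and the Ms4a2 window at chr19:11623670-11623969 on the minus strand.
Prss34: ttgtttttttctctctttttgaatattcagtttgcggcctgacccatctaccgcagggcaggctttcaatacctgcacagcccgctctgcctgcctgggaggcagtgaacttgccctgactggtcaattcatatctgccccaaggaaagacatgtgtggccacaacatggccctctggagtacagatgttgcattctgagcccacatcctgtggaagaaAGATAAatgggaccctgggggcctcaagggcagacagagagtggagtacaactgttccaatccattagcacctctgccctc
Ms4a2: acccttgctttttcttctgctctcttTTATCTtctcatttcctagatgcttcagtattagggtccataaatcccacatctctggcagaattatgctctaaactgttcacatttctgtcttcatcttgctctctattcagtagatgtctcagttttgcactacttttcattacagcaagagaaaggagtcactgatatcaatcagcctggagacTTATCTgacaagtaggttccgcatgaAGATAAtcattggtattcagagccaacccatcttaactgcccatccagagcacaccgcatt
The match in the Prss34 window began 31 bases before the start site. The Ms4a2 window held 3 matches, which began 224, 37 and 11 bases before the start. A match of letters is a description and was not tested for binding.

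Prss34 encodes a serine protease of basophils. It was at 233, 320.2 and 186 CPM in CD62L-neg GMPs and at 0.0837, 0.46996 and 0.131 CPM in CD62L-high CMPs (log2 fold change 9.96 ± 0.32 (SE), adjusted p = 2.41e-12). Ms4a2 encodes the β chain of the high-affinity IgE receptor. It was at 165, 312 and 152 CPM against 0.251, 1.75 and 1.05 CPM (log2 fold change 7.61 ± 0.36 (SE), adjusted p = 1.98e-10). Fcer1a, the α chain of the same receptor, had 6.05, 10.8 and 5.34 CPM and no count in CD62L-high CMPs, at least 104-fold higher. Mcpt8, a basophil protease, was at 115, 169.8 and 93.1 CPM against 4.85, 2.89 and 2.36 CPM (log2 fold change 5.25 ± 0.26 (SE), adjusted p = 2.65e-10). In each of these genes the 3 CD62L-neg GMP libraries lay above all CD62L-high CMP libraries, and without CD62L-high CMP replicate 2 the log2 fold changes of Prss34 and Ms4a2 were 11.00 and 8.22.

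Hdc, Cpa3 and Cd63 are basophil and mast cell genes that the CD62L-high CMPs also contained. Hdc, which encodes the histamine-forming enzyme, was at 344, 363 and 314 CPM against 15.2, 24.4 and 22.8 CPM (log2 fold change 4.03 ± 0.15 (SE), adjusted p = 1.50e-11). Cpa3, carboxypeptidase A3 of mast cell and basophil granules, was at 249, 370.4 and 229.5 CPM against 11.7, 17.99 and 23.3 CPM (log2 fold change 3.99 ± 0.22 (SE), adjusted p = 1.00e-09). Cd63, a granule membrane protein used as an activation marker of basophils, was at 249.8, 316 and 245 CPM against 4.77, 8.79 and 7.41 CPM (log2 fold change 5.25 ± 0.18 (SE), adjusted p = 6.87e-12), and its counts may be shared with the pseudogene Cd63-ps. Il1rl1, the receptor of interleukin 33, was at 32.2, 51.3 and 31.4 CPM, and 3 counts in CD62L-high CMPs gave a ratio of 537-fold, with a 95% counting interval of 183 to 2605. The integrin gene Itgb7 went the other way, at 10.3, 15.7 and 13.2 CPM against 68.05, 68.8 and 83.1 CPM (log2 fold change -2.49 ± 0.17 (SE), adjusted p = 1.06e-08).

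CD62L-neg GMP replicate 2 was the highest of its group for 17 of the 18 basophil and mast cell genes that were called, and for 6 of the 9 eosinophil genes. For Ms4a2 it was at 312 CPM where the other libraries were at 165 and 152. All 18 and 9 calls held without this library, and without each of the other 5 in turn.

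**Figure D2:**
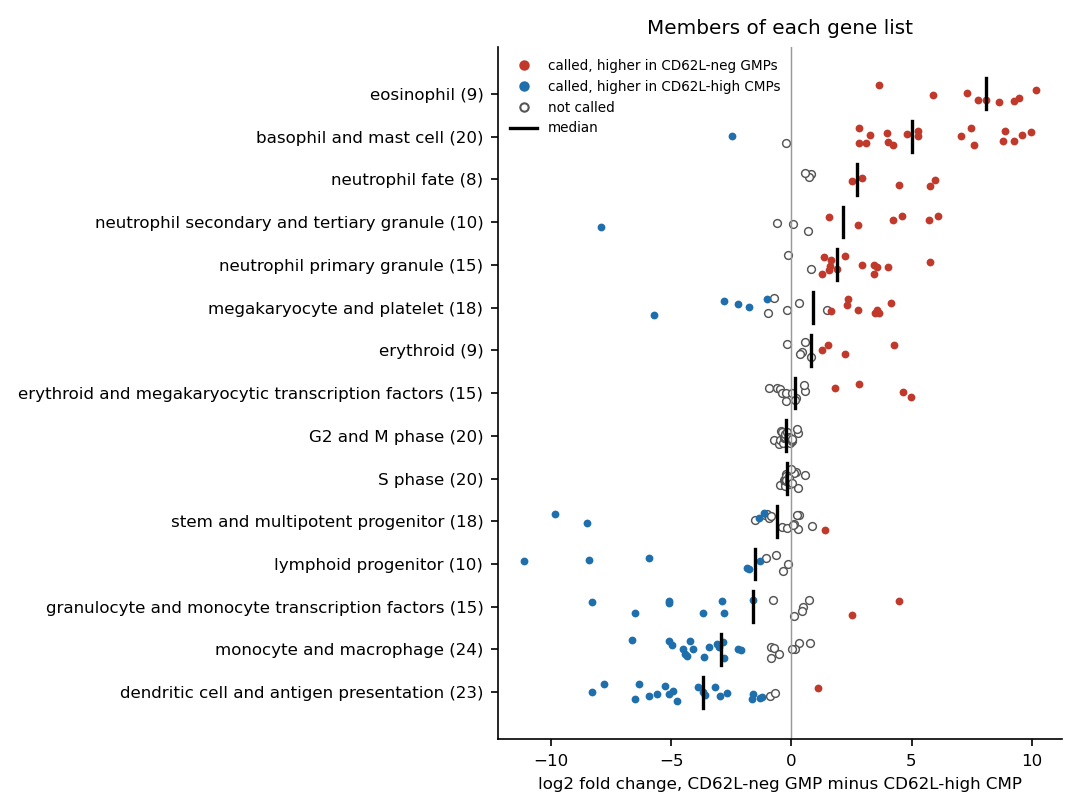
Log2 fold change of each tested member of 15 gene lists (CD62L-neg GMP minus CD62L-high CMP), with the number of members tested in parentheses. Filled points were called (red, higher in CD62L-neg GMPs; blue, higher in CD62L-high CMPs), open points were not, and bars are medians. Medians run from 8.12 for eosinophil genes to -3.68 for dendritic cell and antigen presentation genes, and the cell cycle lists sit near 0.

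Among 15 transcription factors of the erythroid and megakaryocytic lineages, Gata1, Gata2, Klf1 and Gfi1b were higher in CD62L-neg GMPs. The other 11 were not called, and the median was 0.16. Of all genes tested 4.75% were called higher in CD62L-neg GMPs. Gata2 was at 246, 365 and 220.2 CPM against 29.4, 44.2 and 43.2 CPM (log2 fold change 2.83 ± 0.19 (SE), adjusted p = 8.34e-09). Gata1 was at 8.95, 21.9 and 10.2 CPM against 0.251, 0.269 and 0.722 CPM (log2 fold change 4.98 ± 0.51 (SE), adjusted p = 1.78e-06). Klf1, an erythroid factor, was low in CD62L-neg GMPs too, at 4.27, 4.59 and 5.596 CPM against 0, 0.0671 and 0.459 CPM (log2 fold change 4.63 ± 0.80 (SE), adjusted p = 4.03e-04). Without CD62L-high CMP replicate 3 the log2 fold changes of Gata1 and Klf1 were 5.66 and 6.69. Gfi1b was at 4.76, 20.8 and 6.78 CPM against 3.68, 3.09 and 2.56 CPM (log2 fold change 1.79 ± 0.47 (SE), adjusted p = 0.0104), and without CD62L-neg GMP replicate 2 it was at 0.89 with an adjusted p of 0.176. Factors that act as partners of GATA proteins were not called, with Zfpm1 at 0.19 (adjusted p = 0.482) and Tal1 at 0.16 (adjusted p = 0.673). Lmo2 and Ldb1 were lower in CD62L-neg GMPs without overlap, at -0.47 (adjusted p = 0.00203) and -0.41 (adjusted p = 0.00918), below the fold required.

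Genes of megakaryocytes and platelets ran in both directions. On the megakaryocyte and platelet list, 8 of 18 members tested were higher in CD62L-neg GMPs and 5 were higher in CD62L-high CMPs. Over all genes tested these shares were 4.75% and 5.69%. The median of the list was 0.88. Itga2b, the αIIb integrin (CD41), stood at 112, 136 and 106 CPM against 6.78, 10.1 and 11.1 CPM (log2 fold change 3.65 ± 0.17 (SE), adjusted p = 1.54e-10). Cd9, a tetraspanin of platelets, was at 18.3, 35.7 and 24.8 CPM against 4.27, 5.91 and 5.25 CPM (log2 fold change 2.35 ± 0.27 (SE), adjusted p = 5.35e-06). Pf4 and Gp1ba were called but did not exceed 7.12 CPM in any library. Gp1ba lost its call without CD62L-neg GMP replicate 2 (log2 fold change 2.81, adjusted p = 0.0767), and the call of Gp9 (adjusted p = 0.0403) was lost in 4 of the 6 fits that left out a library. Selp, encoding P-selectin, was higher in CD62L-high CMPs, at 14.9, 20.7 and 17.8 CPM against 0.806, 0.167 and 0 CPM (log2 fold change -5.71 ± 0.54 (SE), adjusted p = 6.65e-07), or -7.57 on the log2 scale without CD62L-neg GMP replicate 1. Plek and Mef2c had the same direction, at -1.77 and -2.21.

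On the erythroid list 9 of 27 members were testable. Of these, 4 were higher in CD62L-neg GMPs, against 4.75% of all genes tested: Kel, Icam4, Tfr2 and Blvrb. Tfr2, transferrin receptor 2, was at 33.9, 35.96 and 26.5 CPM against 7.28, 10.6 and 15.3 CPM (log2 fold change 1.53 ± 0.24 (SE), adjusted p = 1.43e-04). The globin genes, Epor and Car1 were too low to test, so that a difference in them was not detectable at this depth. Blvrb lost its call in 5 of the 6 fits that left out a library.

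Neutrophil granule genes were expressed in both populations, at higher levels in CD62L-neg GMPs. Of 15 primary granule genes 13 were called in that direction, against 4.75% of all genes tested, with a median of 1.90. Clec5a and Ctsc were not called. The summed level was 31294 to 33628 CPM in CD62L-neg GMPs and 9728 to 10897 CPM in CD62L-high CMPs, most of it from Mpo. The windows of Elane and its neighbour Prtn3 are shown because each holds a PU.1 motif, GAGGAAG on either strand, in capitals. The start sites are those of RefSeq, and the windows lie at chr10:79886062-79886361 and chr10:79879417-79879716, both on the plus strand.
Elane: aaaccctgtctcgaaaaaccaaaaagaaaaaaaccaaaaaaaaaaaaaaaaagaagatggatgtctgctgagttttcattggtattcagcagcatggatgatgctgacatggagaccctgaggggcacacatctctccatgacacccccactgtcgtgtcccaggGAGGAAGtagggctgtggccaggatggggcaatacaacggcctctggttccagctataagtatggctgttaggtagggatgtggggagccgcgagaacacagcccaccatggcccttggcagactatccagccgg
Prtn3: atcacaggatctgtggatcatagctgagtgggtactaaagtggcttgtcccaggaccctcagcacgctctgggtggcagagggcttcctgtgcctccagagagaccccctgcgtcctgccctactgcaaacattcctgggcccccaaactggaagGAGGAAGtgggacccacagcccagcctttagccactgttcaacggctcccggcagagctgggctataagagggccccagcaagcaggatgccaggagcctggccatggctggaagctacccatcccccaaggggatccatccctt
The matches began 85 and 95 bases before the start sites.

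Mpo encodes myeloperoxidase, and it was at 20897, 22309 and 22444 CPM in CD62L-neg GMPs and at 7988, 7038 and 6851 CPM in CD62L-high CMPs (log2 fold change 1.59 ± 0.08 (SE), adjusted p = 3.74e-10). Elane, neutrophil elastase, was at 2484, 2737 and 2878 CPM against 257, 229.6 and 200.03 CPM (log2 fold change 3.56 ± 0.11 (SE), adjusted p = 2.37e-12). Prtn3, proteinase 3, was at 1038, 1052 and 1171 CPM against 405, 340.2 and 367 CPM (log2 fold change 1.55 ± 0.10 (SE), adjusted p = 4.14e-09). Ms4a3, a membrane protein of granulocyte and monocyte progenitors, was at 330.1, 324 and 352 CPM against 20.005, 18.4 and 24.3 CPM (log2 fold change 4.0 ± 0.12 (SE), adjusted p = 2.37e-12). No library of one population overlapped the other in these 4 genes. Ctsg, encoding cathepsin G, had a log2 fold change of 1.90, and Ctsc, whose product activates the granule proteases, had -0.16 (adjusted p = 0.518).

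The later granule genes that were tested did not exceed 51.3 CPM in any library, except Hp, encoding haptoglobin, at 108, 103 and 132 CPM against 42.1, 40.9 and 32.9 CPM. Of 18 secondary and tertiary granule genes 10 were testable. In CD62L-neg GMPs 6 were higher, and Mmp8 was higher in CD62L-high CMPs, against 4.75% and 5.69% of all genes tested. Pglyrp1, a bactericidal granule protein, was at 39.6, 51.3 and 43.5 CPM against 0.837, 2.75 and 1.84 CPM (log2 fold change 4.59 ± 0.29 (SE), adjusted p = 4.55e-09). S100a8, a calcium-binding protein of maturing neutrophils, was at 9.76, 8.09 and 27.98 CPM against 0, 0.806 and 0 CPM (log2 fold change 5.71 ± 0.77 (SE), adjusted p = 3.46e-05). The counts in CD62L-high CMPs all came from replicate 2, and the log2 fold change was 4.95 without CD62L-neg GMP replicate 3. Lcn2, lipocalin 2, was at 9.11, 6.09 and 5.68 CPM against 1.09, 1.07 and 0.918 CPM (log2 fold change 2.75 ± 0.46 (SE), adjusted p = 2.63e-04). Ltf, Ngp and Camp, which define the secondary granule, were too low to test.

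On a list of genes of the neutrophil fate, 5 of 8 testable members were higher in CD62L-neg GMPs, against 4.75% of all genes tested. They were Vcam1, Fcnb, Cebpe, Rgcc and Gfi1. Cebpe, a factor of granulocyte maturation that is also required for eosinophils, was at 51.4, 58.9 and 63.1 CPM against 2.01, 3.83 and 1.77 CPM (log2 fold change 4.49 ± 0.24 (SE), adjusted p = 8.11e-10). Gfi1, a repressor of monocytic genes, was at 126, 129 and 144 CPM against 20.1, 24.9 and 23.7 CPM (log2 fold change 2.53 ± 0.12 (SE), adjusted p = 2.81e-10). Vcam1, an adhesion molecule, was at 42.8, 48.1 and 58.9 CPM against 0.251, 0.873 and 1.12 CPM (log2 fold change 5.99 ± 0.30 (SE), adjusted p = 3.43e-10). Csf3r, the G-CSF receptor, was at 0.55 and stayed below the fold required.

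The granulocyte and monocyte transcription factors divided. Of 15 tested, Cebpe and Gfi1 were higher in CD62L-neg GMPs, 8 had the opposite direction and 5 were not called, with a median of -1.61. Over all genes tested 4.75% and 5.69% were called in these directions. Irf8 was at 24.03, 22.3 and 13.9 CPM in CD62L-neg GMPs and at 782, 631 and 633 CPM in CD62L-high CMPs (log2 fold change -5.08 ± 0.17 (SE), adjusted p = 5.90e-12), a 33.9-fold difference. Klf4, a monocyte factor, was at 14.6, 11.5 and 6.78 CPM against 76.5, 91.6 and 66.1 CPM (log2 fold change -2.83 ± 0.22 (SE), adjusted p = 5.14e-08). Irf5 was at 8.06, 6.09 and 3.901 CPM against 46.1, 47.9 and 41.5 CPM (log2 fold change -2.90 ± 0.22 (SE), adjusted p = 5.99e-08). Id2, Zbtb46, Mycl and Batf3, factors of dendritic cells, were all higher in CD62L-high CMPs. Batf3 had no count in CD62L-neg GMPs and was at least 37.5-fold higher in CD62L-high CMPs. Mycl was at 0, 0.167 and 0.339 CPM against 12.8, 18.1 and 17.1 CPM (log2 fold change -6.51 ± 0.52 (SE), adjusted p = 9.01e-08), or -7.45 without CD62L-neg GMP replicate 3.

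Factors that act before this choice differed by less than 2-fold. Spi1 was at 136, 158 and 125 CPM in CD62L-neg GMPs and at 129, 135 and 124 CPM in CD62L-high CMPs, and the groups overlapped (log2 fold change 0.11 ± 0.11 (SE), adjusted p = 0.534). Cebpa was at 172, 205 and 160.2 CPM against 102, 107 and 117 CPM, without overlap but below the fold required (log2 fold change 0.73 ± 0.11 (SE), adjusted p = 1.44e-04). Cebpb was at 0.49 (adjusted p = 0.00805). Runx1 was at -0.24 (adjusted p = 0.0983).

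Monocyte and macrophage genes lay on the side of the CD62L-high CMPs. Of 24 tested, 16 were called in that direction, against 5.69% of all genes tested, and 8 were not called, with a median of -2.94. Their summed level was 3372 to 3885 CPM in CD62L-high CMPs and 662 to 690.1 CPM in CD62L-neg GMPs. Csf1r, the receptor of the monocyte growth factor M-CSF, was at 214, 180.2 and 181 CPM in CD62L-high CMPs and at 22.5, 20.9 and 22.7 CPM in CD62L-neg GMPs (log2 fold change -3.12 ± 0.12 (SE), adjusted p = 1.56e-11). Ccr2, the chemokine receptor of inflammatory monocytes, was at 132, 115 and 105 CPM against 7.58, 7.59 and 5.43 CPM (log2 fold change -4.09 ± 0.16 (SE), adjusted p = 1.69e-11). F13a1, a transglutaminase subunit of monocytes, was at 909.5, 736 and 714 CPM against 72.9, 47.9 and 66.6 CPM (log2 fold change -3.65 ± 0.15 (SE), adjusted p = 2.92e-11). Ly86 (MD-1) was at 75.8, 48.9 and 67.6 CPM against 2.34, 2.92 and 3.14 CPM (log2 fold change -4.51 ± 0.22 (SE), adjusted p = 2.02e-10). Not every monocyte gene took part: Ly6c2, Cd14, Sirpa and Adgre1 had values of 0.79, 0.32, 0.14 and 0.03 and were not called. CD62L-high CMP replicate 1 held the highest level of 12 of the 16 genes.

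The largest difference on this list was that of Ctss. Its window, at chr3:95526536-95526835 on the plus strand, is shown because a PU.1 motif on the opposite strand, in capitals, begins 1 base before the start site.
Ctss: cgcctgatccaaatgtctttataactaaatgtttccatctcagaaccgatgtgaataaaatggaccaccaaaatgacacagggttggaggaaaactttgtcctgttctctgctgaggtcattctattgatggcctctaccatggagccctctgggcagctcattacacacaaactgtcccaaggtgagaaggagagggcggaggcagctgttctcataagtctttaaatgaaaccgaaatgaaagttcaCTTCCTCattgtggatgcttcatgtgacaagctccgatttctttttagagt
Ctss was at 81.9, 59.4 and 60.8 CPM in CD62L-high CMPs and at 1.21, 0.751 and 0 CPM in CD62L-neg GMPs (log2 fold change -6.65 ± 0.37 (SE), adjusted p = 1.29e-09), and the log2 fold change was -7.44 without CD62L-neg GMP replicate 1.

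Dendritic cell and antigen presentation genes had the largest median difference toward CD62L-high CMPs, at -3.68. Of 23 tested, 20 were higher in CD62L-high CMPs, against 5.69% of all genes tested. Members with few or no counts in CD62L-neg GMPs, such as Batf3 and Mycl, passed the filter through CD62L-high CMPs. The number of calls is therefore no fair measure against that share. Clec12a was higher in CD62L-neg GMPs, and Cst3 and Bst2 were not called. Flt3 was at 272, 229 and 282 CPM in CD62L-high CMPs and at 4.68, 4.26 and 3.73 CPM in CD62L-neg GMPs (log2 fold change -5.94 ± 0.15 (SE), adjusted p = 2.84e-13). Cd74, the invariant chain of MHC class II, was at 97.9, 169 and 178 CPM against 3.95, 3.59 and 1.53 CPM (log2 fold change -5.61 ± 0.28 (SE), adjusted p = 2.86e-10). H2-Aa was at 58.7, 72.3 and 104 CPM against 2.4999, 3.92 and 1.27 CPM (log2 fold change -4.93 ± 0.29 (SE), adjusted p = 2.45e-09). Ciita, the regulator that switches on MHC class II genes, was at 7.37, 7.52 and 14.6 CPM against 0, 0 and 0.339 CPM (log2 fold change -6.36 ± 0.74 (SE), adjusted p = 6.35e-06), with all counts of the CD62L-neg GMPs in replicate 3. In the CD62L-high CMPs replicate 1 was the lowest for Cd74, H2-Aa and H2-Ab1, and still above each CD62L-neg GMP library. H2 genes are close paralogs, so reads may be divided among them. Clec9a, a receptor of conventional dendritic cells, was at 12.1, 11.1 and 11.1 CPM against 1.21, 0 and 0 CPM, and Siglech, a plasmacytoid marker, had no count in CD62L-neg GMPs. Xcr1 and Cd209a, genes of mature dendritic cells, were too low to test.

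Lymphoid progenitor genes shared that direction, with 6 of 10 tested called, against 5.69% of all genes tested, and a median of -1.52. Dntt and Il7r, almost or fully without counts in CD62L-neg GMPs, passed the filter through CD62L-high CMPs. This number of calls is therefore no fair measure either. Dntt was at 168, 39.3 and 47.4 CPM, with 1 count in CD62L-neg GMPs, a ratio of 2853-fold, with a 95% counting interval of 512 to 112730.0. Replicate 1 of the CD62L-high CMPs stood well above the other libraries for Dntt. Il7r, the interleukin 7 receptor of lymphoid precursors, was at 4.604, 2.01 and 3.41 CPM with no count in CD62L-neg GMPs. Notch1 was at 331, 243 and 222 CPM against 77.8, 80.5 and 62.5 CPM (log2 fold change -1.85 ± 0.15 (SE), adjusted p = 7.58e-08). Satb1, a chromatin organizer of lymphoid progenitors, was at 189.7, 179.7 and 176 CPM against 47.3, 59.99 and 55.1 CPM (log2 fold change -1.75 ± 0.11 (SE), adjusted p = 7.79e-09). CD62L-high CMP replicate 1 was the highest library for 5 of the 6.

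Markers of mature lymphocytes were mostly absent. On the B cell list 13 of 15 genes, including Cd79a and Pax5, were too low to test, and Ighm, whose unrearranged locus is also transcribed in progenitors, was at 205, 158 and 164 CPM in CD62L-high CMPs against 4.84, 4.51 and 6.44 CPM (log2 fold change -5.06 ± 0.17 (SE), adjusted p = 3.35e-12). On the T and NK cell list Cd3e and Cd8a were too low to test. Of 7 members tested 3 were called, Nkg7, Gzmb and Tcf7, all higher in CD62L-neg GMPs, against 4.75% of all genes tested. Each was highest in CD62L-neg GMP replicate 2, and Gzmb is also on the basophil and mast cell list. Tcf7 lost its call in the fits of 21 and 18 libraries (adjusted p = 0.0696 and 0.0764). Nkg7 is also a granule gene of myeloid cells, at 143, 155 and 146 CPM against 13.6, 14.5 and 12.7 CPM (log2 fold change 3.44 ± 0.12 (SE), adjusted p = 6.95e-12).

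Stem and multipotent progenitor genes were mostly not called, with a median of -0.61. Ifitm1 alone was higher in CD62L-neg GMPs, which is near the background share of 4.75%. In CD62L-high CMPs 4 of 18 were higher, against 5.69% of all genes tested. Those 4 were Hlf, Ifitm3, Robo4 and Mn1. Mn1, a transcriptional coregulator, was at 11.05, 7.79 and 7.41 CPM in CD62L-high CMPs with no count in CD62L-neg GMPs, at least 103-fold higher. Hoxa9 and Meis1 had log2 fold changes of -0.39 and -0.92 and were not called. Leaving out 1 library gave 3 to 7 genes toward CD62L-high CMPs, with 7 without CD62L-neg GMP replicate 3.

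Cell cycle genes stayed below a 2-fold difference, with G2 and M phase genes leaning toward CD62L-high CMPs. None of 20 S phase genes and none of 20 G2 and M phase genes passed the fold threshold in edgeR or DESeq2, with medians of -0.17 and -0.22. At an unadjusted p under 0.05, 1 S phase gene was higher in CD62L-neg GMPs and 7 in CD62L-high CMPs, and 8 G2 and M phase genes had the latter direction. The summed level of the G2 and M phase genes was 2409 to 2620.5 CPM in CD62L-neg GMPs and 3125 to 3316 CPM in CD62L-high CMPs. That of the S phase genes was 3525 to 3883 CPM and 3935 to 4165 CPM. At an adjusted p under 0.05 there was 1 S phase gene in each direction. All 8 of the G2 and M phase genes passed, where 1496 of all 12997 genes tested did so toward CD62L-high CMPs. Of these 8, Mki67 was at -0.49 (adjusted p = 9.23e-04) and Cenpf at -0.75 (adjusted p = 2.61e-05).

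Growth factor and cytokine receptors ran in both directions, with a median of -0.12. Against 4.75% and 5.69% of all genes tested, 4 of 24 were higher in CD62L-neg GMPs and 10 in CD62L-high CMPs. Toward CD62L-neg GMPs these were Il1rl1, Il5ra, Ifngr1 and Il17rb. Ifngr1, a chain of the interferon γ receptor, was at 327, 372 and 354 CPM against 95.6, 86.9 and 91.4 CPM (log2 fold change 1.94 ± 0.10 (SE), adjusted p = 4.27e-10). Toward CD62L-high CMPs they included Flt3, Csf1r, Il7r and both parts of the interleukin 6 receptor. Il6st (gp130) was at 286, 218 and 171 CPM against 8.14, 6.01 and 11.6 CPM (log2 fold change -4.71 ± 0.22 (SE), adjusted p = 1.54e-10), and Il6ra was at 117, 114 and 113 CPM against 27.9, 24.4 and 31.8 CPM (log2 fold change -2.04 ± 0.12 (SE), adjusted p = 3.56e-09). Il10ra and Il1r1 were at -4.25 and -3.75. Csf2rb, the shared β chain for interleukin 3, interleukin 5 and GM-CSF, was at 0.53 with overlapping groups, and its counts may be shared with Csf2rb2.

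Innate sensors ran in both directions. Of 24 pattern recognition genes 3 were higher in CD62L-neg GMPs and 6 in CD62L-high CMPs, against 4.75% and 5.69% of all genes tested. Tlr4, the receptor for bacterial lipopolysaccharide, was at 13.7, 14.02 and 10.4 CPM in CD62L-neg GMPs and at 0.837, 2.15 and 2.23 CPM in CD62L-high CMPs (log2 fold change 2.84 ± 0.38 (SE), adjusted p = 3.16e-05). The endosomal receptor gene Tlr9 had the opposite direction, at 13.8, 16.6 and 8.73 CPM in CD62L-high CMPs against 0.968, 0 and 0 CPM (log2 fold change -5.27 ± 0.71 (SE), adjusted p = 3.22e-05), and replicate 1 held all counts of the CD62L-neg GMPs, so that the fold depends on it. Unc93b1, the chaperone of endosomal receptors, was at 329, 251 and 293 CPM against 76.8, 64.7 and 82.3 CPM (log2 fold change -1.96 ± 0.12 (SE), adjusted p = 5.39e-09). Among 24 genes of the interferon response 6 lay higher in CD62L-high CMPs, including Mx1 at 9.54, 8.46 and 5.64 CPM against 0.484, 0.2503 and 0.678 CPM (log2 fold change -4.04 ± 0.52 (SE), adjusted p = 1.96e-05), and 17 were not called. The 1 call toward CD62L-neg GMPs, Ddx58, is near the background share and was lost in 3 of the 6 fits without a library. Isg15 and Irf7 were not called.

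Immediate early genes were examined because they can respond to the handling of cells. Ier3, Egr1 and Dusp1 were higher in CD62L-neg GMPs, each with its highest level in replicate 2. Of the 22 genes 4 had the opposite direction, each with its highest level in CD62L-high CMP replicate 3, and the median was 0.26. Over all genes tested 4.75% were called toward CD62L-neg GMPs and 5.69% toward CD62L-high CMPs. Nr4a1, a nuclear receptor that is also a monocyte gene, was at 111, 184 and 193 CPM in CD62L-high CMPs against 7.74, 8.59 and 6.36 CPM (log2 fold change -4.43 ± 0.20 (SE), adjusted p = 1.34e-10). The part of handling in these differences was not tested.

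Beyond the pair, levels in all 7 populations placed each program. These are CPM scaled over 21 libraries, given as mean ± SD of 3 libraries, with no test. The means and SDs of bulk CMPs include replicate 2 and those of CD62L-high GMPs include replicate 1, the libraries that stood apart. Prg2 was at 1062 ± 250.4 CPM in CD62L-neg GMPs, 88.6 ± 3.71 in bulk GMPs and 4.08 ± 1.65 in CD62L-low GMPs, and no other population exceeded a mean of 1.85 ± 1.96. Mcpt8 had a like order, at 119 ± 37.02 CPM, 16.2 ± 1.02 and 4.54 ± 1.49 in these populations. Bulk GMPs contain CD62L-neg cells, so their values are not independent of the CD62L-neg GMPs. Bulk CMPs likewise contain CD62L-high cells and are not independent of the CD62L-high CMPs. Ms4a2 and Cpa3 were shared with the CD62L-low CMPs, where they were at 56.7 ± 7.48 and 56.3 ± 22.8 CPM against 198 ± 83.5 and 267 ± 71.3 in CD62L-neg GMPs.

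Gata2 was highest in CD62L-low CMPs, at 601 ± 17.6 CPM. It was at 293 ± 78.9 in bulk CMPs and 262 ± 71.9 in CD62L-neg GMPs, whose spreads overlapped, and at 36.8 ± 7.83 in CD62L-high CMPs. Gata1 and Itga2b had the order CD62L-low CMPs, bulk CMPs or CD62L-neg GMPs, then CD62L-high CMPs. Gata1 was at 65.2 ± 8.62, 16.7 ± 4.66, 12.9 ± 6.73 and 0.3905 ± 0.251 CPM in that order. The CD62L-neg GMPs thus lay between CD62L-low CMPs and the other GMPs in these genes.

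Elane was at 2551 ± 184 CPM in CD62L-neg GMPs and at 2452 ± 219 in CD62L-low GMPs, a difference within the spread, and at 216 ± 27.3 in CD62L-high CMPs, where it lay nearer to bulk CMPs at 168 ± 72.5. Cebpe had the order CD62L-neg GMPs at 54.6 ± 5.52 CPM, bulk GMPs at 16.7 ± 2.605, CD62L-low GMPs at 16.6 ± 3.86 and CD62L-high GMPs at 3.19 ± 3.25, of which bulk and CD62L-low GMPs did not differ beyond their spread. CD62L-high CMPs were at 2.395 ± 1.07 CPM.

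Irf8 separated the populations in another way. It was at 644 ± 81.8 CPM in CD62L-high CMPs, overlapping the 751 ± 34.1 of CD62L-high GMPs, and at 18.97 ± 5.12 in CD62L-neg GMPs, near the 12.9 ± 10.04 of CD62L-low CMPs. Csf1r was at 181 ± 17.99 CPM in CD62L-high CMPs, like bulk GMPs at 177 ± 0.494, and at 20.8 ± 1.02 in CD62L-neg GMPs. Flt3 and Dntt were highest in CD62L-high CMPs and in bulk CMPs, which contain the CD62L-high cells. Flt3 was at 246 ± 26.2 CPM in CD62L-high CMPs and 165 ± 19.6 in bulk CMPs, and its means in GMP populations were 3.99 ± 0.454 in CD62L-neg, 12.99 ± 0.696 in CD62L-low and 18.5 ± 2.25 in CD62L-high GMPs. Cd74 was at 139.98 ± 41.3 CPM in CD62L-high CMPs, 44.9 ± 14.5 in bulk CMPs and 14.04 ± 9.37 in CD62L-high GMPs.

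**Figure D3:**
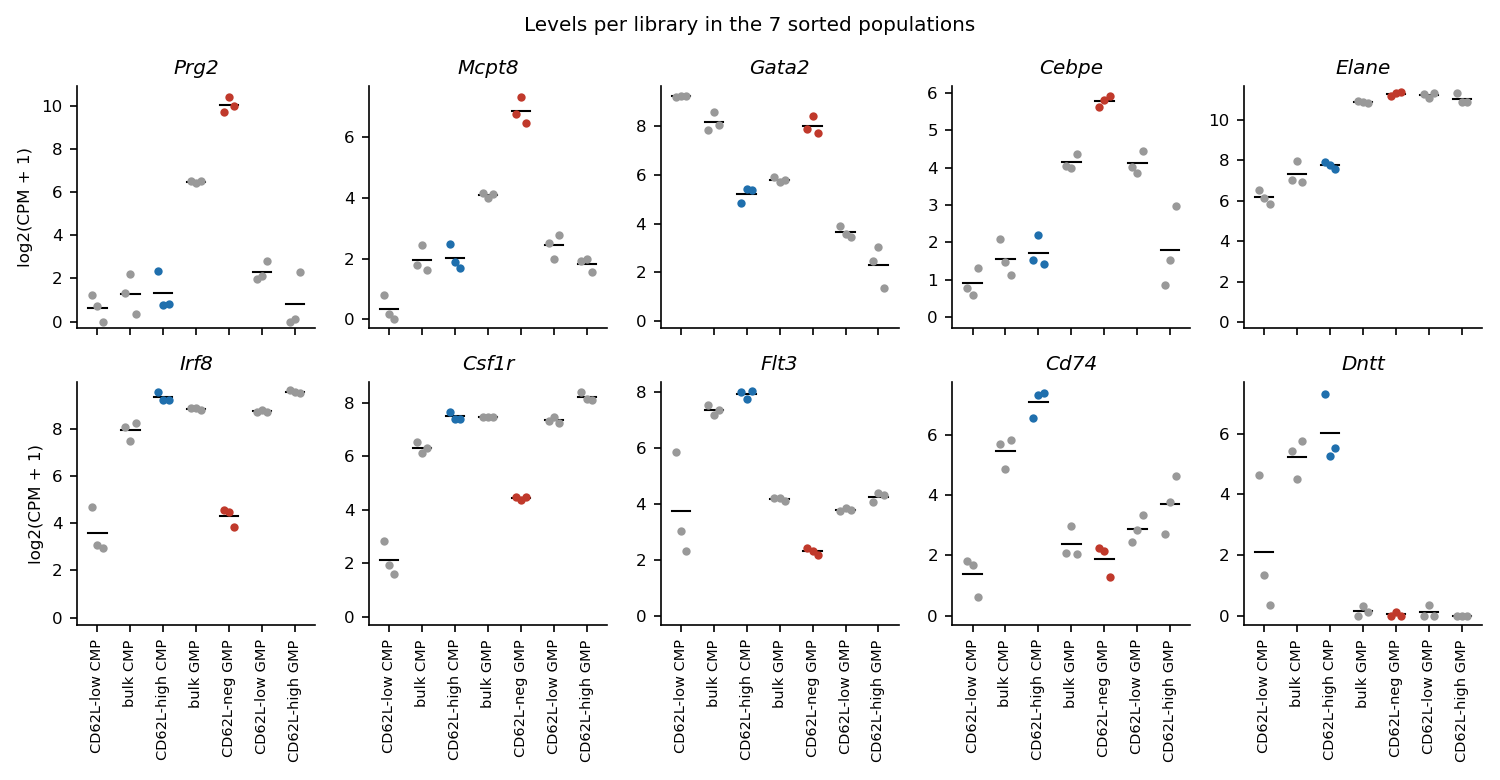
Level of 10 genes in each of the 21 libraries, as log2(CPM + 1), with CD62L-neg GMPs in red, CD62L-high CMPs in blue, the other 5 populations in grey and the mean as a bar. Prg2 and Mcpt8 are highest in CD62L-neg GMPs, Irf8 and Csf1r are low there and in CD62L-low CMPs, and Flt3, Cd74 and Dntt are highest in CD62L-high CMPs.

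Averaged over lists, some of these positions appeared again and others did not. The mean relative log2 level is the average over members of log2(CPM + 4) minus the gene's mean over the 21 libraries. For eosinophil genes it was 2.475 in CD62L-neg GMPs, 0.404 in bulk GMPs and -0.691 in CD62L-high CMPs. For dendritic cell and antigen presentation genes it was 1.15 in CD62L-high CMPs and 0.401 in bulk CMPs, and for lymphoid progenitor genes 1.034 and 0.841. The bulk CMP values include the CD62L-high cells and are not independent of them. Monocyte genes were at 0.572 in CD62L-high CMPs, 0.579 in CD62L-low GMPs and 1.342 in CD62L-high GMPs, but at -1.22 in CD62L-neg GMPs. Erythroid and megakaryocytic transcription factors were at 0.095 in CD62L-neg GMPs and -0.249 in CD62L-high CMPs. The megakaryocyte and platelet list did not separate the pair, at -0.315 in CD62L-neg GMPs and -0.366 in CD62L-high CMPs. Its libraries overlapped, from -0.367 to -0.289 and from -0.404 to -0.344.

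**Figure D4:**
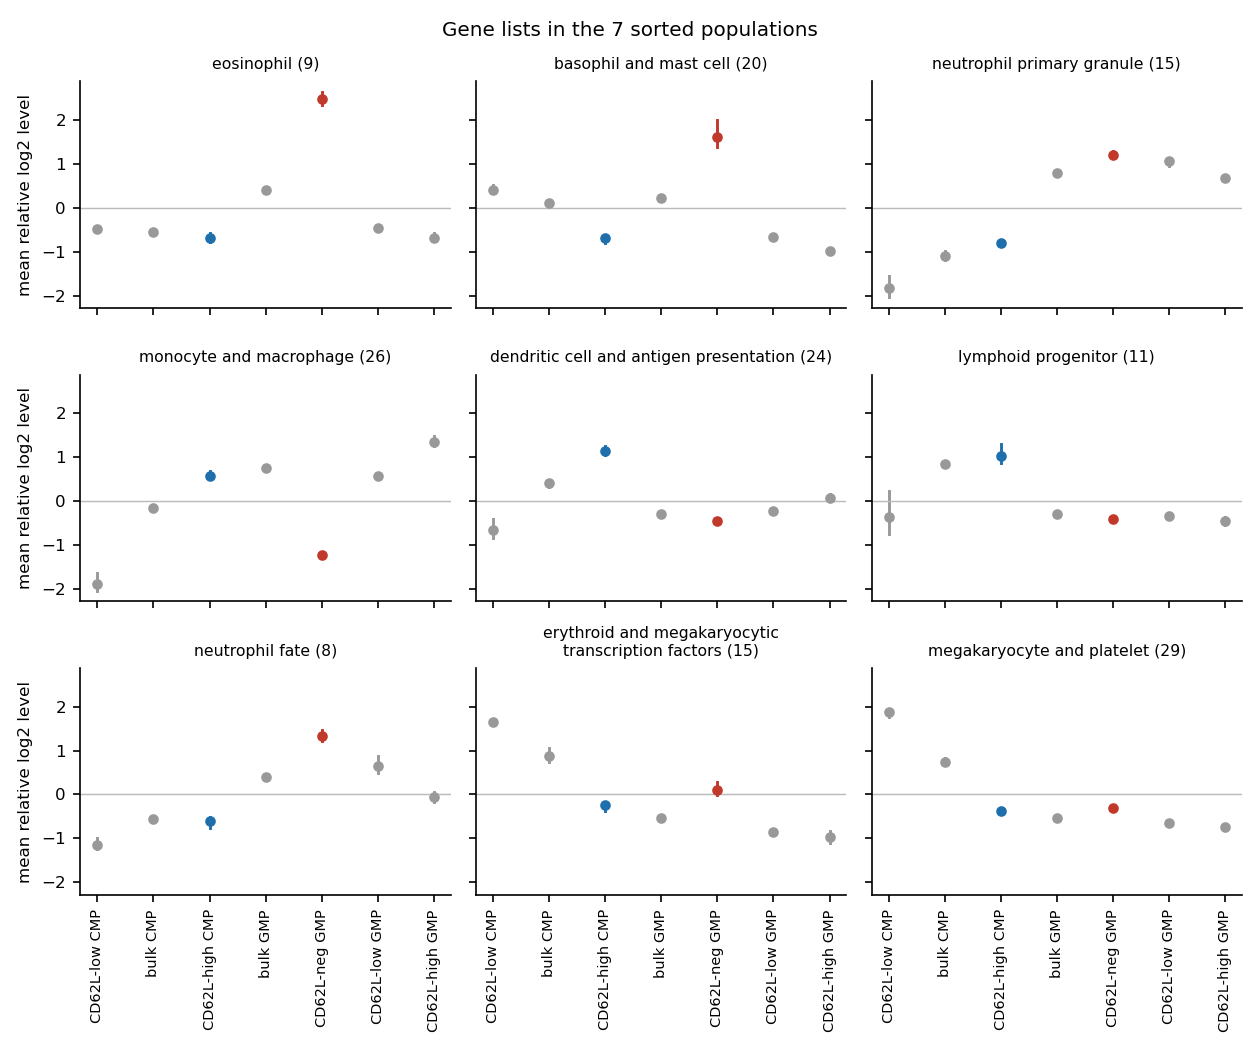
Mean relative log2 level of 9 gene lists in the 7 populations, with the number of genes in parentheses. Points are means of 3 libraries and bars run from the lowest to the highest library. CD62L-neg GMPs (red) lead for eosinophil genes at 2.475 and CD62L-high CMPs (blue) for dendritic cell and antigen presentation genes at 1.15.

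In a fit of all 21 libraries, chosen after the data were seen, each of the 2 populations was tested against each of the other 6. Of 14801 genes, 34 (0.23%) were higher in CD62L-neg GMPs than in every other population, by the same thresholds for each pair. They included 6 of 9 eosinophil genes (Ear1, Ear2, Ear6, Epx, Prg2 and Prg3) and 8 of 20 basophil and mast cell genes (Cd63, Cpa3, Csf1, Cyp11a1, Hdc, Mcpt8, Ms4a2 and Prss34). Cebpe and Vcam1 were also among them, as were Alox5, the lipoxygenase of leukotriene synthesis, and Cdh1, encoding E-cadherin. For CD62L-high CMPs there were 4 such genes (0.027%): Ccnd1, Cd74, Id2 and Plbd1. Bulk CMPs contain the CD62L-high range, a larger part of them than the small CD62L-neg fraction is of bulk GMPs. This limits the fold that CD62L-high CMPs can reach over bulk CMPs, so the counts of 34 and 4 are not comparable. Without bulk CMP replicate 2 and CD62L-high GMP replicate 1 the counts were 52 and 5. The 52 contained all 34, and the 5 contained Ccnd1, Cd74 and Plbd1 but not Id2.

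The distances between libraries measured how far the populations stood apart as a whole. Over the 1000 genes with the largest SD, on log2(CPM + 4), CD62L-neg GMPs were 47.2 ± 1.02 (SD, 9 pairs of libraries) from CD62L-high CMPs, compared with 12.7 ± 1.86 and 10.7 ± 1.25 within each population. CD62L-neg GMPs were nearest to bulk GMPs, at 33.4 ± 1.55, and farther from bulk CMPs, at 51.2 ± 5.04, and CD62L-low CMPs, at 57.4 ± 2.64. Their distance was 37.1 ± 2.18 to CD62L-low GMPs but 50.1 ± 2.52 to CD62L-high GMPs, no nearer than to CD62L-high CMPs. CD62L-high CMPs were 35.4 ± 1.56 from CD62L-low GMPs and 38.2 ± 2.24 from CD62L-high GMPs. They were 32.6 ± 0.991 from bulk GMPs, 34.0 ± 6.74 from bulk CMPs and 57.6 ± 3.91 from CD62L-low CMPs. Without bulk CMP replicate 2, left out after the data were seen, bulk CMPs were nearer to CD62L-high CMPs than bulk GMPs were, at 29.7 ± 2.07 (6 pairs). CD62L-neg GMPs were then 47.9 ± 1.18 from bulk CMPs. Bulk CMPs contain the CD62L-high cells and bulk GMPs the CD62L-neg cells, so the distances to them are not independent of this shared content. On log2(CPM + 1), with all libraries, the distances of CD62L-high CMPs were 45.1 ± 6.197 to bulk CMPs and 46.6 ± 1.26 to bulk GMPs. Each population was thus closer to bulk GMPs than the pair was to each other.

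**Figure D5:**
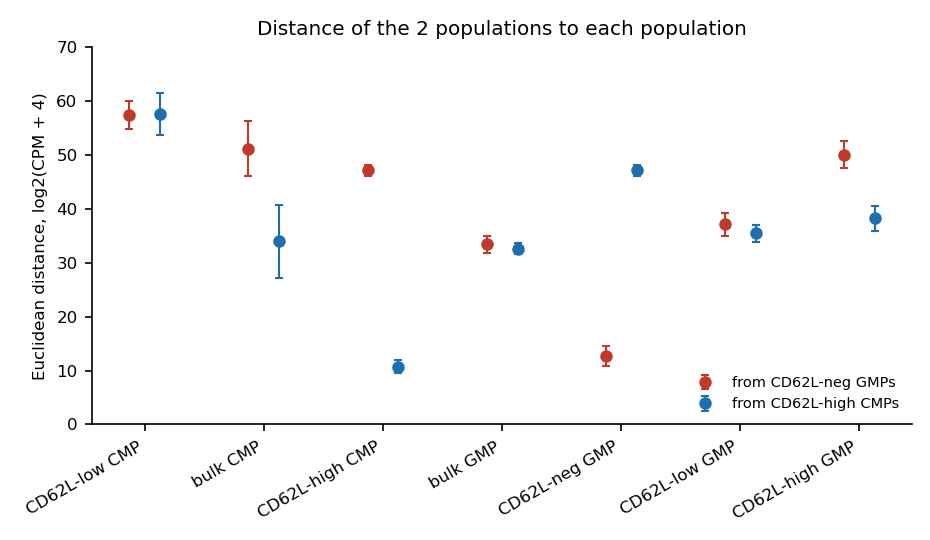
Euclidean distance of CD62L-neg GMPs (red) and CD62L-high CMPs (blue) to each of the 7 populations, over 1000 genes on log2(CPM + 4), as mean and SD over pairs of libraries. Both are about equally far from bulk GMPs, at 33.4 and 32.6, and 47.2 from each other.

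Promoter letters were counted over 11560 windows of 300 bases, which covered 9070 of the 12997 genes tested. The GATA motif AGATAA, the C/EBP motif TTGCNNAA and the PU.1 motif GAGGAAG, none of which contains another, were searched on both strands. They occurred in 6.47%, 8.35% and 13.5% of all windows. In windows of genes higher in CD62L-neg GMPs the shares were 9.18%, 13.4% and 13.4%, and in those of genes higher in CD62L-high CMPs 7.63%, 8.58% and 15%. Of 25 windows of basophil and mast cell genes 8 held a GATA motif and 8 a C/EBP motif. Of 15 windows of primary granule genes 6 held a PU.1 motif and 3 a C/EBP motif. Lists of the other direction held them too: the GATA motif was in 4 of 19 windows of dendritic cell and antigen presentation genes and in 3 of 23 of monocyte genes, and the PU.1 motif in 3 and 6 of these windows. These shares are descriptions with no test.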

How the data were processed

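Libraries of sorted cells were sequenced; SMART-Seq v.4 Ultra Low Input is the kit in the methods and a stranded SMARTer kit that in the labels. The authors demultiplexed with bcl2fastq, trimmed with Trim Galore, aligned to mm10 with HISAT2 and deposited raw read counts per gene from HTSeq, without versions in the sources used here. Whether counting used strand was not given in the sources used here, so overlapping genes may share reads. The table held 47643 genes, of which 47224 (99.12%) were paired with symbols, and 0 columns without a sample.

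Genes were filtered with filterByExpr, scaled by TMM and tested with the edgeR 4.0.16 quasi-likelihood F test in R 4.3.3 on 6 libraries, with group as the only term. Benjamini-Hochberg adjustment ran over all 12997 genes, and the code was tested on simulated data. Replicate pairs differed by more than sampling noise. The named genes were the 10 largest called differences per direction with mean CPM of at least 10 in the higher group and no overlap, excluding gene models, at most 6 called members per list and direction, genes the paper names and the sort markers. Lists and members were chosen with earlier results of these data known, and the lists got no test. Genes with no count in a group were given a bound of 3 counts over the group, and the 95% intervals cover counting error only. Alternatives were another scaling, DESeq2 1.42.0, other filters, other library sets, a replicate block and other thresholds. The comparison with each other population was added after the data were seen. Promoter windows and motif positions came from RefSeq (GRCm38.p6). Some of the genes measured are not reported here.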

Additional observations from a re-analysis of the deposited data

How the results depend on the processing

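With 618 genes higher in CD62L-neg GMPs and 740 higher in CD62L-high CMPs, the adjusted p alone gave 1459 and 1496, and a test against a 2-fold change gave 303 and 384. DESeq2 gave 688 and 850, and no filter gave 690 and 855. Scaling by the median ratio method gave 613 and 742. Leaving out 1 library gave 587 to 608 and 662 to 823. No call changed direction under any alternative, and 1324 of the 1358 calls remained in DESeq2. The replicate numbers did not pair the libraries (correlations of -0.0519, -0.145 and -0.0476), and the replicate block gave 569 and 701. In the counts of the eosinophil, basophil and mast cell, primary granule, monocyte, dendritic cell and lymphoid lists in their leading direction, no alternative moved the count by more than 1.5 times. Among calls on low counts, Tlr7 had an adjusted p of 0.0624 and Gp9 of 0.13 under the replicate block, and Clec9a had 0.053 in DESeq2. The distance to bulk GMPs over that to CD62L-low CMPs was 0.583 for CD62L-neg GMPs and 0.567 for CD62L-high CMPs, 0.648 and 0.66 over all genes past the filter, and 0.558 to 0.599 and 0.551 to 0.587 when a library was left out. The genes higher in CD62L-neg GMPs than in each other population numbered 34, and 52 in the fit of 19 libraries. The cause of these changes was not tested. Genes at a few counts per library limit what can be said of late granule, globin and mature lymphocyte genes.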

Other observations

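The following single genes were chosen after their values were seen and stand for no gene group. Nrp1, a coreceptor for semaphorins and VEGF, was at 41.9, 41.02 and 44.7 CPM in CD62L-high CMPs and at 0.565, 0.667 and 1.44 CPM in CD62L-neg GMPs (log2 fold change -5.57 ± 0.28 (SE), adjusted p = 3.42e-10). Plxnb2, a semaphorin receptor, was at 145, 124 and 116 CPM against 4.92, 7.68 and 4.41 CPM (log2 fold change -4.50 ± 0.18 (SE), adjusted p = 2.90e-11), and Ephb2, an ephrin receptor, was at 22.8, 20.4 and 18.9 CPM against 0.726, 2.002 and 0 CPM. On the side of CD62L-neg GMPs, Cdh1 was at 46.9, 80.3 and 43.5 CPM against 0.167, 0.0671 and 0.197 CPM (log2 fold change 8.55 ± 0.39 (SE), adjusted p = 9.86e-11).

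Alox5, the lipoxygenase of leukotriene synthesis, was at 64.7, 93.6 and 47.99 CPM in CD62L-neg GMPs and at 0.753, 2.08 and 1.64 CPM in CD62L-high CMPs (log2 fold change 5.48 ± 0.30 (SE), adjusted p = 1.02e-09). Slc40a1, the iron exporter ferroportin, was at 16.6, 18.5 and 27.8 CPM against 0.6696, 0.201 and 0.197 CPM (log2 fold change 5.92 ± 0.43 (SE), adjusted p = 3.03e-08). Ccnd1 (cyclin D1) was higher in CD62L-high CMPs, at 41.9, 51.4 and 43.5 CPM against 3.63, 2.09 and 0.933 CPM (log2 fold change -4.35 ± 0.30 (SE), adjusted p = 1.77e-08). Bach2, a factor of lymphoid cells, was at 23.6, 18.3 and 21.98 CPM against 1.45, 1.59 and 0 CPM (log2 fold change -4.37 ± 0.51 (SE), adjusted p = 6.79e-06).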
